A study of Drosophila melanogaster with 8 samples.

Results

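The genes described here are 42 genes that neurons use to release, receive and carry signals. They were chosen by name, for synaptic release, voltage-gated and ligand-gated channels and transmitter synthesis, and matched by symbol or synonym to probe sets that the array's annotation gives to 1 gene. Of the 42 genes, 36 had at least 1 such probe set, out of 11983 genes measured in all, and 61 probe sets belonged to them. Syt1, Syx1A, nAChRalpha6, CaMKII, mAChR-A and Fas2 had no probe set named in the annotation used here and were not analysed. The 8 samples were whole Drosophila melanogaster females of the composite line SZ, bred from the Zimbabwean Z lines ZS2, ZS11, ZS53, ZS56, ZH12 and ZH32. The females were virgin until the experiment and 7 days past eclosion, and were frozen 30 minutes after mating. In 4 pools the males were SZ (ZxZ) and in 4 pools they were of LHM (ZxM), a large outbred laboratory population that stood for the M strain. Each pool held 8 females and gave 1 array, so that no single fly and no single tissue was measured.

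At a chemical synapse a vesicle is filled with transmitter, docked by SNARE proteins and their helpers, and fused when calcium enters through a voltage-gated channel. The transmitter then opens ligand-gated channels or activates G protein-coupled receptors on the next cell. In insects acetylcholine is the main fast excitatory transmitter of the brain, GABA is inhibitory, and glutamate drives the muscles. The nervous system is a small part of a whole female beside ovary, fat body and muscle, and some of these genes are also used outside neurons. In RNA of whole flies, fewer neurons and less RNA per neuron cannot be told apart.

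Values are log2 levels on the scale of VSN, which compresses differences between low values, so a fold of a dim gene is understated. Scanner files were not used here, and signal over background is unknown for single probe sets. The brightness of a probe set depends on its probes as well as on the transcript, so the levels of different genes are not compared with each other and are only placed in the range of the array. The lower quartile of an array's probe sets, which lay between 6.75 and 6.81, stood for the lowest levels, and a probe set counted as above them where it exceeded that quartile on each of the 8 arrays. Any 2 of the 8 arrays were closely alike (Pearson's r across probe sets 0.996 to 0.998, probe sets not being independent), and none were identical. The upper quartile of the ZxZ arrays ran from 9.46 to 9.54 and that of the ZxM arrays from 9.55 to 9.64, so that every ZxM array was higher there. The labels do not say whether the replicates were separate cultures, so p-values measure the spread between these pools.

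Of the 36 genes, 29 had a probe set above the lowest levels (80.6%), beside 79.6% of all measured genes. With the median of the array as reference (7.24 to 7.31), 15 genes remained (41.7%, beside 61.4% of all measured genes). Odorant and gustatory receptors, each used by few cells of a fly, gave a further reference, the 95th percentile of their 125 probe sets, which lay between 6.94 and 7.10. Above this line on every array were 18 of the 36 genes (50%), beside 68% of all measured genes. A gene with several probe sets had more chances to pass, and the 36 genes had 61 probe sets, beside 13647 for all 11983 genes. By the probe set of the largest variance alone, 24 of the 36 genes cleared the lower quartile, 12 the median and 16 the receptor line. The shares of all measured genes by that probe set were not computed. Whether the shares of the 36 genes differ from those of all genes was not tested.

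**Figure D1:**
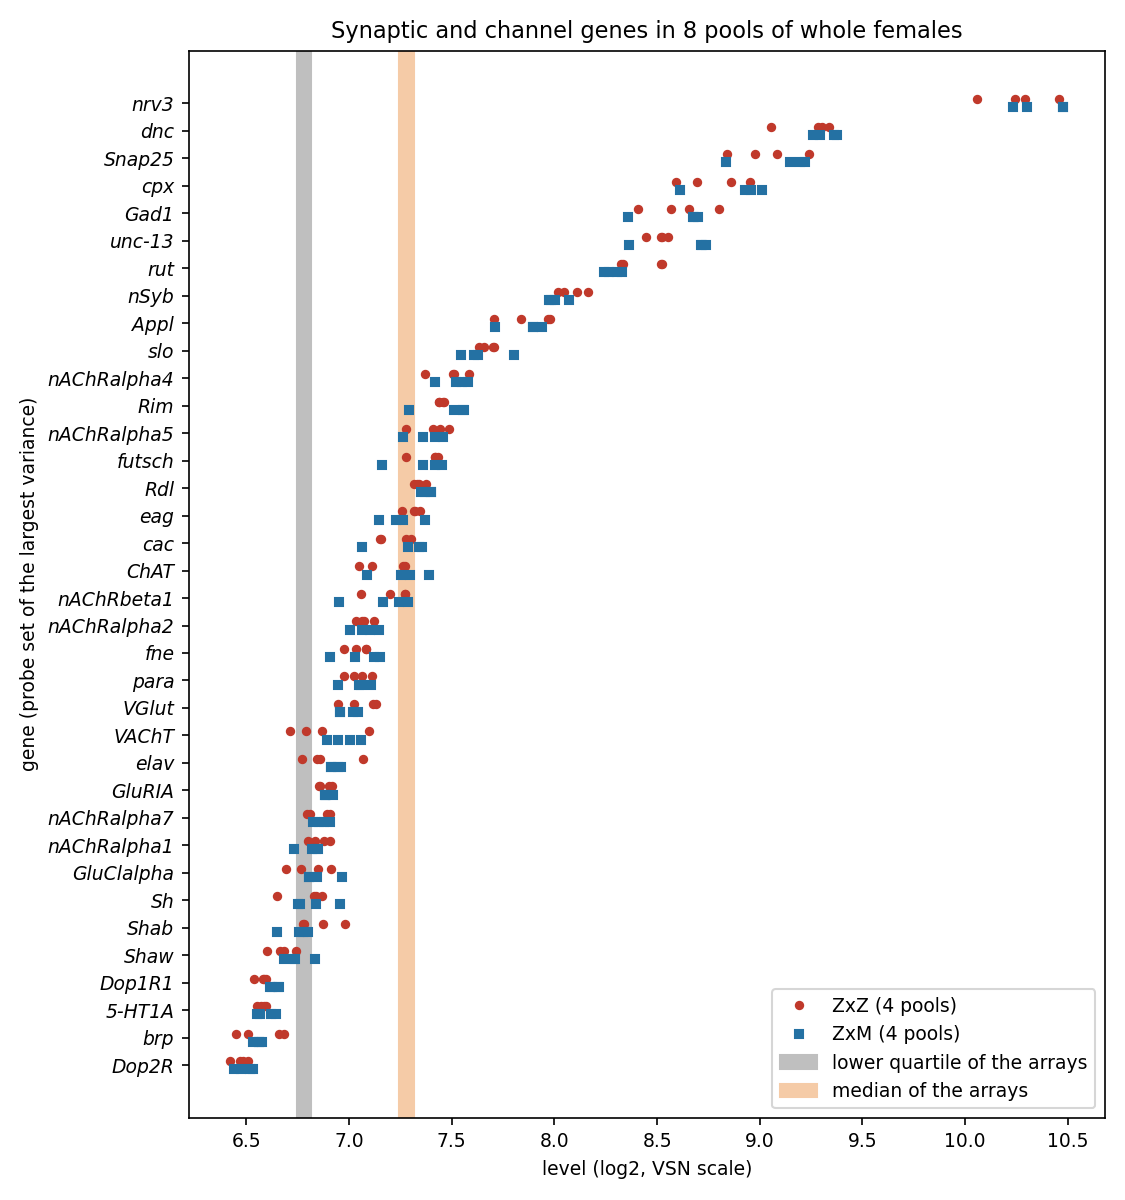
Level (log2, VSN scale) of the probe set that stands for each of the 36 genes, in the 4 ZxZ pools (circles) and the 4 ZxM pools (squares), sorted by mean. The grey band spans the lower quartile of the 8 arrays (6.75 to 6.81) and the orange band their median (7.24 to 7.31), and Dop1R1 is the 1 gene whose groups do not overlap.

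All 6 measured genes of the release machinery had a probe set above the array median. Snap25, a SNARE protein of the presynaptic membrane, was at 9.08, 9.24, 8.98 and 8.84 in the ZxZ pools and at 9.20, 8.83, 9.22 and 9.15 in the ZxM pools. The vesicle SNARE nSyb was at 8.11, 8.05, 8.16 and 8.02 in ZxZ and between 7.97 and 8.07 in ZxM. In both genes the groups overlapped, and the lowest ZxM value of Snap25 came from replicate 2. Rim and brp, scaffolds of the active zone where vesicles fuse, cleared the median only with probe sets other than those that stand for the genes.

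Of the voltage-gated channels, all 7 genes cleared the lower quartile and 3 the receptor line: slo, eag and Shaw. The calcium-activated potassium channel slo was at 7.70, 7.70, 7.66 and 7.63 in ZxZ and at 7.61, 7.63, 7.54 and 7.81 in ZxM, with the highest and the lowest value both in ZxM. The sodium channel para, which carries the action potential, had a mean of 7.04 ± 0.0584 in the ZxZ pools and of 7.04 ± 0.0675 in the ZxM pools (each SD over n = 4). It lay above the lower quartile on every array and below the median on every array. The presynaptic calcium channel cac had a mean of 7.22 ± 0.0794 in the ZxZ pools and of 7.26 ± 0.136 in the ZxM pools (SD, n = 4 each), and these overlapped.

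In the acetylcholine system, 5 of 8 measured genes cleared the lower quartile and 2, nAChRalpha4 and nAChRalpha5, the receptor line. Both encode subunits of nicotinic receptors. The nAChRalpha4 probe set was at 7.59, 7.51, 7.51 and 7.37 in ZxZ and at 7.52, 7.55, 7.42 and 7.58 in ZxM, and the groups overlapped. The subunits nAChRalpha1 and nAChRalpha7 and the vesicular transporter VAChT were not above the quartile on every array. The nAChRalpha1 probe set was at 6.88, 6.80, 6.83 and 6.91 in ZxZ and at 6.84, 6.85, 6.73 and 6.82 in ZxM. Such values near the quartile cannot be told from no expression.

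Among the other transmitter systems, 5 of 8 genes cleared the lower quartile. Gad1, the enzyme that makes GABA, and the GABA-gated chloride channel Rdl lay above the array median on every array. Gad1 was at 8.65, 8.80, 8.57 and 8.41 in ZxZ and at 8.70, 8.36, 8.67 and 8.68 in ZxM. Its lowest ZxM value again came from replicate 2, and its lowest ZxZ value from replicate 4. The glutamate-gated chloride channel GluClalpha, the dopamine receptor Dop1R1 and the serotonin receptor 5-HT1A were not above the lower quartile on every array with any probe set. Dop2R, another dopamine receptor, was at 6.51, 6.47, 6.48 and 6.42 in ZxZ and at 6.47, 6.44, 6.53 and 6.52 in ZxM with the probe set that stands for it, and its other probe set cleared the quartile.

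Both measured second messenger genes lay above the array median on every array. The cAMP phosphodiesterase dnc was at 9.29, 9.05, 9.34 and 9.30 in ZxZ and at 9.26, 9.36, 9.38 and 9.29 in ZxM. The adenylyl cyclase rut, which makes the cAMP that dnc breaks down and like it is known from fly learning mutants, was at 8.52, 8.32, 8.33 and 8.52 in ZxZ and at 8.24, 8.27, 8.33 and 8.30 in ZxM. In 3 of 4 ZxZ pools rut lay above every ZxM pool, in replicate 3 by less than the rounding of these values, and ZxZ replicate 2 lay within the ZxM range. Of the remaining 5 measured genes, the sodium pump subunit nrv3 and Appl, the fly's amyloid precursor protein, lay above the median. The RNA-binding protein elav, the usual marker of neurons, was at 7.07, 6.84, 6.77 and 6.86 in ZxZ and at 6.95, 6.96, 6.91 and 6.91 in ZxM. Its probe set fell below the lower quartile of the array in ZxZ replicate 3 and lay above it on the other 7 arrays.

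For 14 genes there was more than 1 probe set, 39 in all, and these did not always lie on the same side of the quartile. The methods keep the probe set with the largest variance. It was the brightest of its gene in 8 cases, the dimmest in 4 (brp, Shaw, Shab and Dop2R) and neither in 2. In 5 genes (these 4 and Sh) the probe set that stands for the gene did not clear the lower quartile on every array while another did. The retained probe set of brp gave 6.66, 6.45, 6.51 and 6.68 in the ZxZ pools and 6.56, 6.53, 6.58 and 6.56 in the ZxM pools. Another brp probe set had a mean of 7.53 over the 8 arrays. For the potassium channel Shaw the retained probe set gave 6.68, 6.74, 6.66 and 6.60 in ZxZ and 6.68, 6.74, 6.73 and 6.83 in ZxM, and the groups overlapped. The other Shaw probe set averaged 7.51 over the 8 arrays. Values given for brp, Shaw and Dop2R by the retained probe set are therefore values at the lowest levels.

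**Figure D2:**
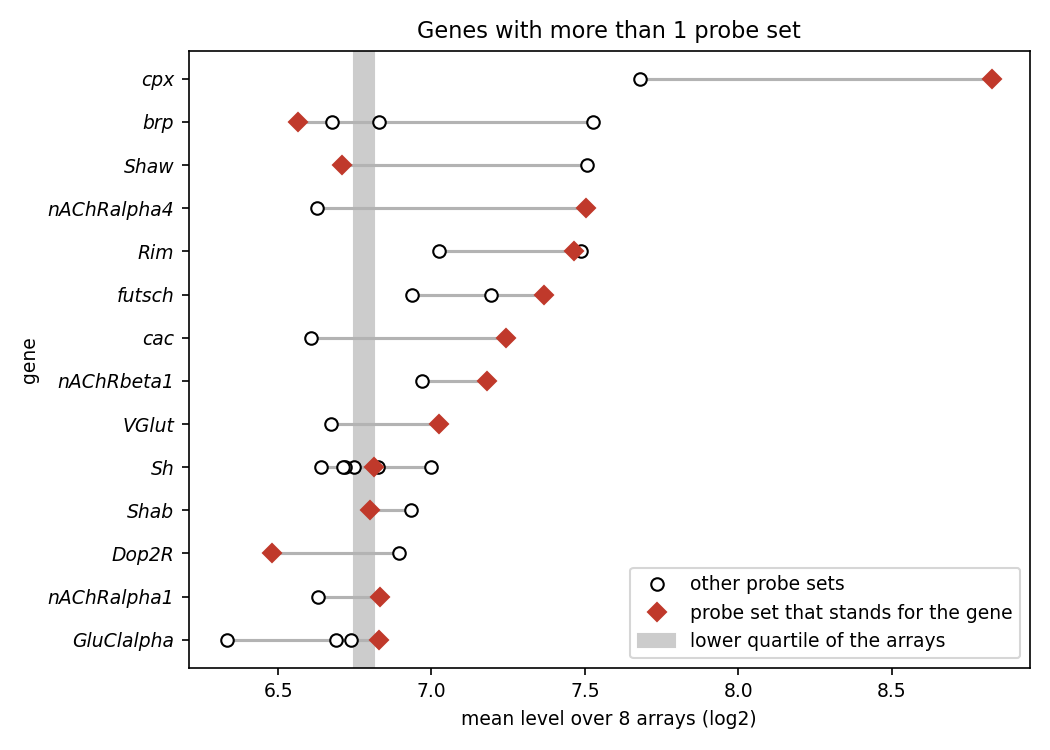
Mean level over 8 arrays (log2) of every probe set of the 14 genes with more than 1. Diamonds mark the probe set of the largest variance, which stands for the gene, circles the others, and the grey band is the lower quartile of the arrays (6.75 to 6.81). For brp, Shaw, Shab and Dop2R the diamond is the dimmest.

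The comparison of ZxZ with ZxM asks which genes respond to the strain of the male, since females of Z lines discriminate against M males. None of the synaptic and channel genes passed it, and their differences were small. Differences are ZxZ minus ZxM in log2 units, so a negative value is lower in ZxZ. They were estimated with array weights, so they are not the differences of the plain group means. They were tested two-sided with limma, at 10% FDR over 5991 genes, the more variable 50% by their interquartile range across the 8 arrays. Of the 36 genes, 14 passed this variability filter and were tested, and 0 were called, beside 18.7% of all tested genes (17.6% lower and 1.10% higher in ZxZ). The share called rose with the level. It was 4.86% of all tested genes with a mean level between the lower quartile and the median, where 7 of the 14 lay. From the median to the upper quartile it was 16.8% (6 of the 14), and above that 26.0% (1 of the 14). The smallest adjusted p was 0.110, and 1 gene, unc-13, had an unadjusted p under 0.05. None of the 14 had groups that did not overlap, beside 13.1% of all tested genes. When all 11983 genes were fitted, limma called 0 of them, and so 0 of the 36 (2 of these, unc-13 and rut, were at an unadjusted p under 0.05).
The count of calls rested on single arrays. Without ZxZ replicate 2, 18 of the 36 genes were tested. Limma then called cpx, Snap25, unc-13, nrv3, ChAT and VAChT lower and rut and VGlut higher in ZxZ. Of all 5991 tested genes it called 2149 lower and 251 higher there. Without ZxZ replicate 1 it called 4 of these genes lower, of 15 tested (beside 2549 lower and 348 higher of all tested genes). Without ZxM replicate 2 it also called 4 lower, of 11 tested (beside 2248 and 302). Without ZxM replicate 4 it called 3 lower and 1 higher, of 18 tested (beside 2595 and 373). Without ZxZ replicate 3, ZxZ replicate 4, ZxM replicate 1 or ZxM replicate 3 it called 0 of the tested genes at all. The calls of the synaptic genes thus came and went with those of the whole array.

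For genes above the lowest levels, the intervals of the differences bound what these arrays could have missed, within a given fit and scaling. In the fit of all 11983 genes, the 95% intervals of 27 of the 36 genes lay between -0.2 and 0.2 on the log2 scale, which is a fold of 1.15 on the VSN scale. Those of nrv3, Snap25, cpx, Gad1, unc-13, rut, VAChT, ChAT and Shab reached past these bounds. Among the genes within them were Dop2R, brp, 5-HT1A, Dop1R1 and Shaw, whose retained probe sets lay at the lowest levels. There VSN compresses differences, so a narrow interval bounds little for such genes. The widest reach in this fit was -0.31 (cpx) and 0.25 (rut), and 34 of the 36 intervals included 0. In the fit of the tested genes only, the cpx interval ran from -0.36 to 0.027. With arrays centred on their median, the cpx difference itself was -0.23. These intervals are not adjusted for the number of genes.

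**Figure D3:**
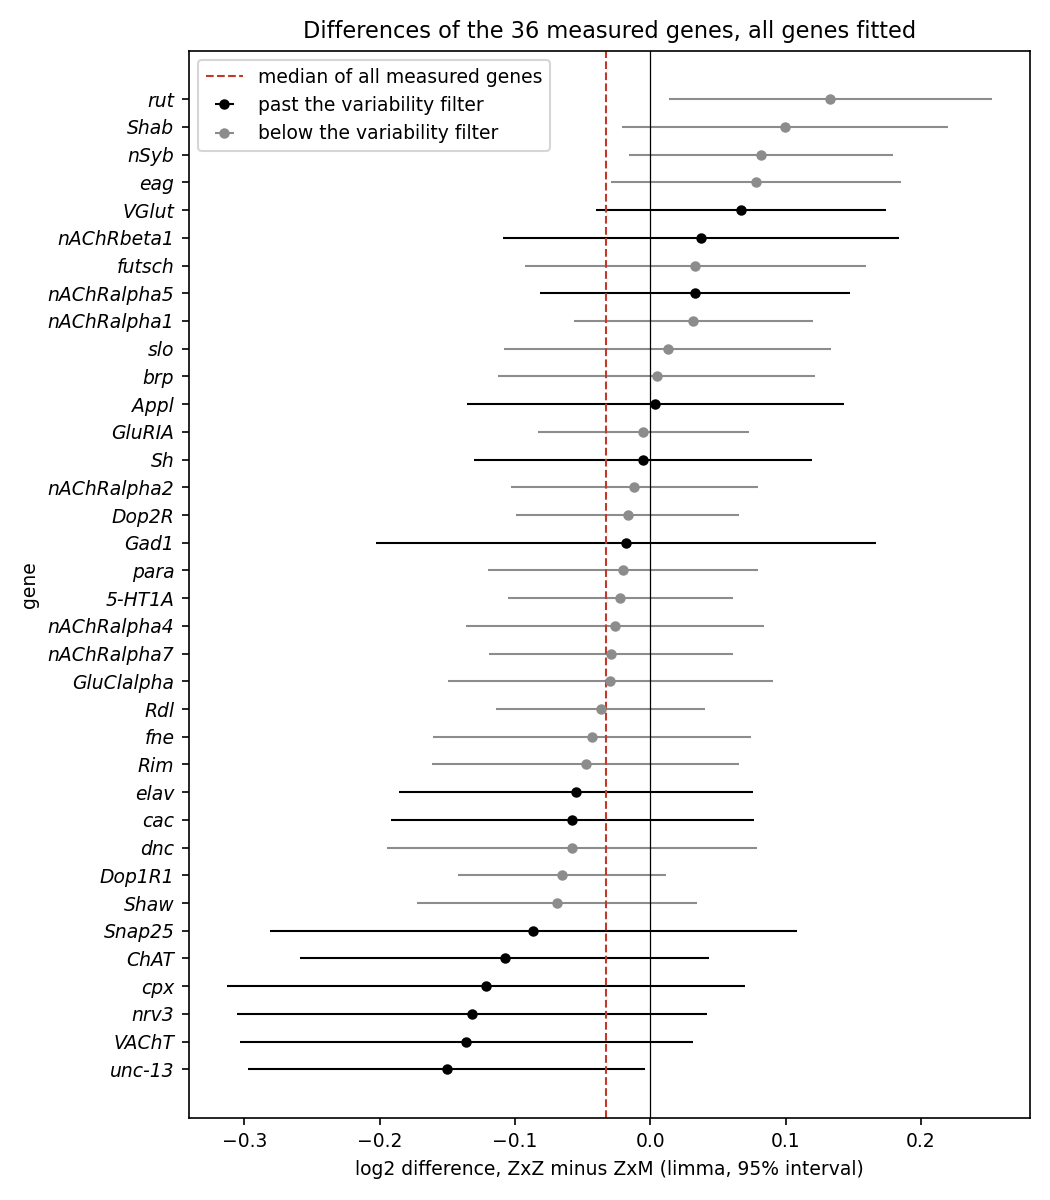
Log2 difference ZxZ minus ZxM of the 36 genes with 95% intervals from limma fitted on all measured genes. Black points passed the variability filter, grey points did not, and the dashed line is the median of all measured genes in this fit (-0.033). The intervals of unc-13 and rut do not include 0, but neither gene passed after adjustment.

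With the weights of the reported fit, 25 of the 36 genes were lower in ZxZ and 11 higher (69.4% lower, beside 63.2% of all measured genes). With arrays centred on their median, 30 of the 36 and 78.9% of all genes were lower, and with quantile normalization 23 of the 36 and 49.8% of all genes. Their median difference was -0.029, beside -0.039 for all measured genes, and these medians were -0.071 and -0.087 after centring. With quantile normalization they were -0.033 and 0.00027, so that the order of the medians depends on the scaling. Over all 61 probe sets, each fitted on its own, 30 were lower and 31 higher (49.2% lower, beside 60.9% of all probe sets with 1 gene). In 7 of the 14 genes with several probe sets, these differed in sign. The complexin gene cpx is an example. Complexin clamps and then promotes SNARE-driven fusion, and its 2 probe sets differed by -0.12 and 0.058. The direction for cpx thus depends on the probe set.
The differences were read against the level, since the difference of a gene moved with its level over the whole array. Among genes between the lower quartile and the median, all measured genes had a median difference of 0.039 and 23.8% were lower in ZxZ, while 11 of the 15 synaptic and channel genes there were lower, with a median of -0.019. From the median to the upper quartile, all measured genes had a median of -0.059, and the 15 genes of the list one of -0.030 with 9 lower. Above the upper quartile the median of all measured genes was -0.107, and nrv3, alone there, was at -0.15. Of the 12 measured genes on the X chromosome, 9 were lower with a median of -0.023, beside -0.046 for all X genes, and 0 of the 4 tested were called, beside 26.0% of tested X genes.

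The tested gene with the smallest p was unc-13, which primes vesicles for fusion and lies on chromosome 4. It was at 8.52, 8.55, 8.52 and 8.45 in ZxZ and at 8.72, 8.37, 8.74 and 8.72 in ZxM. In 3 of 4 ZxM pools it lay above all ZxZ pools, and in ZxM replicate 2 below all of them. The weighted log2 difference was -0.17 (SE 0.0662, adjusted p = 0.110 from limma), a 1.12-fold difference. The plain group means were 8.51 in ZxZ and 8.64 in ZxM, and ZxM replicate 2 had the lowest array weight, 0.505. Without ZxM replicate 2 the difference was -0.22 with an adjusted p of 0.0392 from limma. Over all settings tried the adjusted p ran from 0.0264 to 0.654.
VAChT and ChAT, which load acetylcholine into vesicles and make it, lie together on 3R, with VAChT inside the span of ChAT in the RefSeq annotation. Whether their probe sets read shared sequence was not tested. VAChT was at 6.87, 7.10, 6.71 and 6.79 in ZxZ and at 7.06, 6.89, 6.95 and 7.01 in ZxM. The log2 difference was -0.16 (SE 0.0775, adjusted p = 0.153 from limma), and the range of the ZxZ pools held all ZxM pools. ChAT was at 7.27, 7.26, 7.05 and 7.11 in ZxZ and at 7.25, 7.09, 7.30 and 7.39 in ZxM, with a difference of -0.13 (SE 0.0697, adjusted p = 0.206). Replicates 3 and 4 were the low ZxZ pools of both genes. In these pools VAChT lay below the lower quartile of the array, at the lowest levels.
The brighter cpx probe set was at 8.86, 8.95, 8.69 and 8.59 in ZxZ and at 8.96, 8.61, 9.01 and 8.93 in ZxM. It differed by -0.16 (SE 0.0868, adjusted p = 0.191 from limma). nrv3 was at 10.24, 10.46, 10.29 and 10.06 in ZxZ and at 10.47, 10.23, 10.30 and 10.48 in ZxM, a difference of -0.15 (SE 0.0823, adjusted p = 0.196). In both genes the groups overlapped.
With quantile normalization, keeping probe sets and tested genes fixed (an alternative chosen after seeing the data), nrv3 was at -0.028 and cpx at -0.075, while VAChT was at -0.18 and ChAT at -0.15. In the same setting unc-13 was at -0.096 (adjusted p = 0.599 from limma). The differences of nrv3, cpx and unc-13 were thus smaller there, and those of the cholinergic pair were not. None of the 5 was called in that setting.
VGlut, the vesicular glutamate transporter, was the tested gene with the largest positive difference. It was at 7.02, 6.95, 7.13 and 7.12 in ZxZ and at 6.96, 6.95, 7.04 and 7.02 in ZxM, and the groups overlapped. Its difference was 0.081 (SE 0.0541) at an adjusted p of 0.283 from limma, and 0.029 with that quantile normalization.

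**Figure D4:**
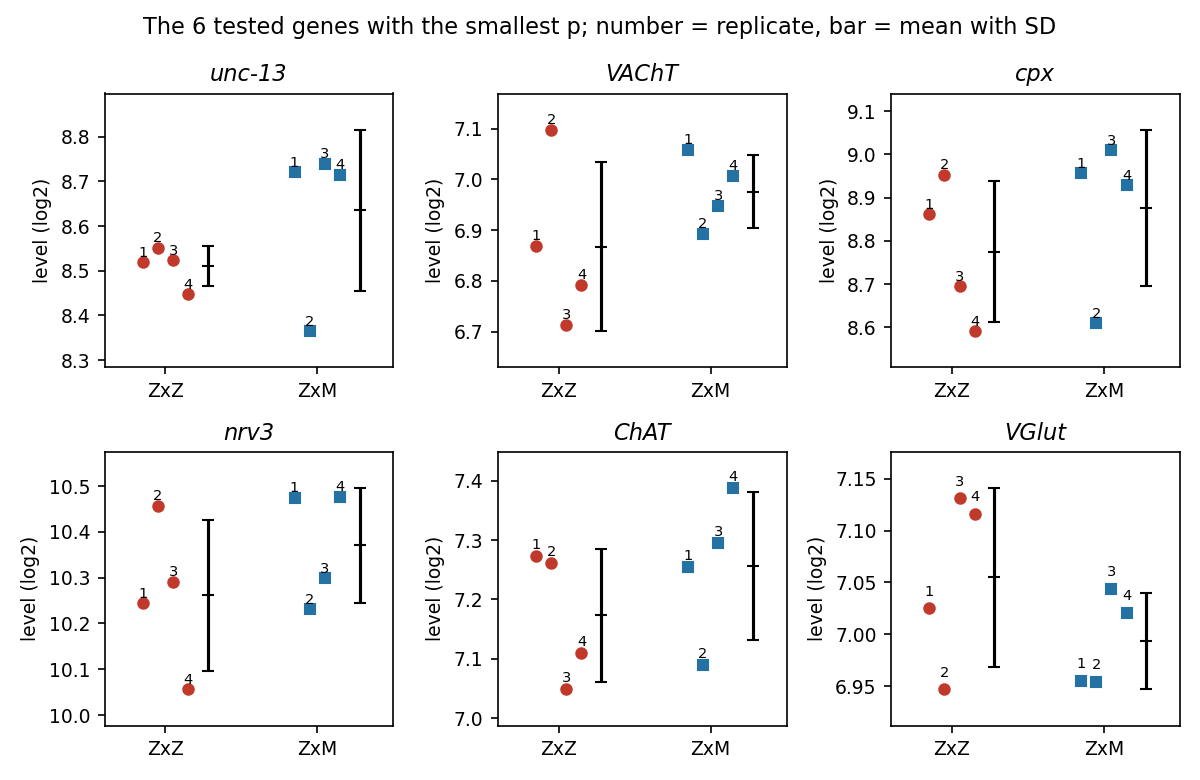
Level (log2) of the 6 tested genes with the smallest p in each pool, with the replicate number beside each point and the mean with its SD (n = 4) as a bar. Each axis has its own range and does not start at 0. In each of the 6 genes the lowest ZxM pool is replicate 2, in VGlut level with replicate 1.

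Dop1R1 was the 1 gene of the 36 whose groups did not overlap, beside 10.2% of all measured genes. It was at 6.60, 6.54, 6.58 and 6.58 in ZxZ and at 6.66, 6.65, 6.63 and 6.61 in ZxM. Both groups lay below the lower quartile of the arrays, and the gene did not pass the variability filter. Without that filter the difference was -0.065 with an adjusted p of 0.295 from limma. The rut difference in the same fit was 0.13 (interval 0.014 to 0.25, adjusted p = 0.202).

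Within each group, 1 array was often the lowest for many genes at once. Of the 16 genes with a mean level over the median of all probe sets, ZxZ replicate 4 was the lowest ZxZ pool for 12 (75%), beside 40.3% of all measured genes over that level. ZxM replicate 2 was the lowest ZxM pool for 9 of the 16 (56.3%), beside 41.2%. In ZxM replicate 2 the 16 genes lay at a median of -0.17 from the mean of the other 3 ZxM pools, beside -0.049 for all genes over that level, and in ZxZ replicate 4 at -0.12, beside -0.043. The 27 further genes of the same pathways over that level lay at -0.029 in ZxM replicate 2 and at -0.078 in ZxZ replicate 4, so that in ZxM replicate 2 they were nearer 0 than all genes. In the other 6 arrays the median of the 16 genes lay between 0.012 and 0.083. These comparisons are descriptions, without a test.
The array weights of limma gave ZxM replicate 2 the lowest weight, 0.505, and ZxZ replicate 4 a weight of 1.08. Summed levels of 5 glial markers, 3 photoreceptor markers and 3 muscle markers were also lowest in ZxZ replicate 4 and ZxM replicate 2 of their groups, and so were those of 4 ovarian germline markers. The summed levels of 6 follicle cell markers, 6 fat body markers and 4 midgut markers were lowest in ZxZ replicate 4 too, but in ZxM they were lowest in replicate 3 (follicle cells) and in replicate 4 (fat body and midgut). The part of these tissues in the shift was not tested.

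**Figure D5:**
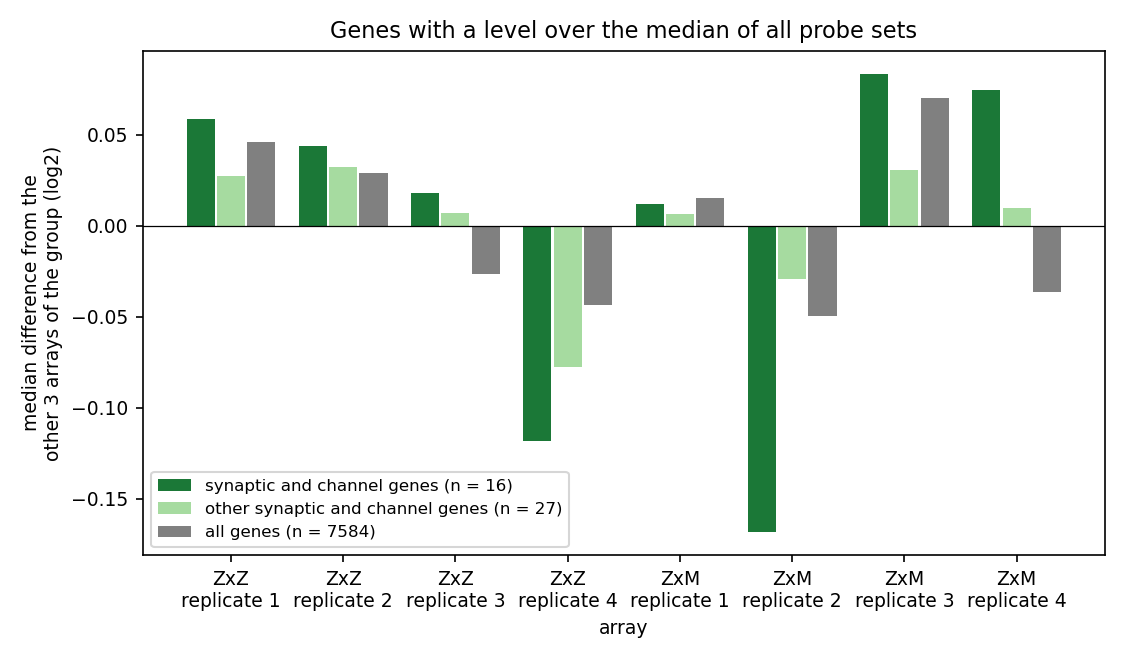
Median over genes of the log2 level of an array minus the mean of the other 3 arrays of its group, for the 16 synaptic and channel genes with a level over the median of all probe sets, 27 other genes of the same pathways, and all 7584 genes over that level. The 16 genes lie at -0.17 in ZxM replicate 2 and at -0.12 in ZxZ replicate 4.

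Between the groups, the 5 glial markers had a median difference of -0.080 and a summed level (log2 of the sum) of 11.07 to 11.41 in ZxZ and 11.17 to 11.51 in ZxM, and 0 of 3 tested were called. The 6 follicle cell markers had a median of -0.24 and a sum of 15.39 to 15.94 in ZxZ and 15.80 to 16.09 in ZxM, and 0 of 6 tested were called. The 6 fat body markers had a median of 0.12 and a sum of 16.53 to 16.68 in ZxZ and 16.34 to 16.55 in ZxM, with 1 of 5 tested called higher. The 3 photoreceptor markers and the 3 muscle markers had medians of -0.045 and -0.080, the 4 germline markers -0.013 with 1 of 4 called lower, and the 4 midgut markers -0.037, and otherwise 0 were called. Within each of these types the markers differed in sign, from -0.074 to 0.091 (photoreceptor), -0.10 to 0.18 (muscle), -0.23 to 0.14 (germline) and -0.27 to 0.047 (midgut). The sums in ZxZ and ZxM were 10.33 to 10.46 and 10.27 to 10.53 (photoreceptor), and 10.32 to 10.79 and 10.26 to 10.63 (muscle). They were 13.88 to 13.96 and 13.86 to 14.13 (germline), and 14.61 to 15.03 and 14.79 to 15.04 (midgut). None of these markers lay at the bottom of the array, the dimmest being at the 41.5th percentile of probe sets.

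A list of 78 further genes of the same pathways held 68 measured and 31 tested genes. Limma called 4 lower and 2 higher in ZxZ at 10% FDR (19.4%, beside 18.7% of all tested genes), and 25 did not pass. The 68 genes had a median difference of -0.0063, beside -0.039 for all measured genes. By level, the 6 above the upper quartile had a median of -0.17, beside -0.107 for all genes there. From the median to the upper quartile 21 were at 0.0041, beside -0.059. From the lower quartile to the median 26 were at 0.013, beside 0.039, and below that quartile 15 at -0.010, beside 0.014. The 4 called lower lay above the upper quartile, where 26.0% of all tested genes were called. The 2 called higher lay between the lower quartile and the median, where 4.86% were.
The NMDA receptor subunit Nmdar2 was higher in ZxZ, at 7.28, 7.28, 7.32 and 7.32, than in ZxM, at 7.11, 7.17, 7.11 and 7.17. The groups did not overlap, and the difference was 0.17 (SE 0.0431, adjusted p = 0.0866 from limma). GluRIIB, a glutamate receptor subunit of the neuromuscular junction, was higher by 0.17 (SE 0.0551, adjusted p = 0.0901 from limma). It was at 6.95, 6.94, 6.94 and 7.13 in ZxZ and at 6.85, 6.80, 6.76 and 6.81 in ZxM. The ZxM values lay near the lower quartile of the arrays (6.75 to 6.81) and cannot be told from no expression.
The inward rectifier potassium channel Irk1 was lower in ZxZ at -0.26 (SE 0.0677, adjusted p = 0.0866 from limma), at 9.98, 10.04, 9.85 and 9.79 in ZxZ and at 10.24, 9.998, 10.10 and 10.15 in ZxM, and the groups overlapped. The active zone scaffold Liprin-alpha was lower at -0.20 (adjusted p = 0.0874), with 9.89, 9.87, 9.81 and 9.83 in ZxZ and 10.08, 9.84, 10.08 and 10.03 in ZxM, where replicate 2 alone lay within the ZxZ range. Tomosyn, which binds SNARE proteins and inhibits release, was lower at -0.17 (adjusted p = 0.0874), with 9.75, 9.64, 9.61 and 9.68 in ZxZ and 9.87, 9.80, 9.85 and 9.78 in ZxM, and its groups did not overlap. The endocytic scaffold Dap160 was at -0.16 (adjusted p = 0.0901). Nmdar2, Irk1 and Dap160 each have 2 probe sets, and only the values of the more variable one are given here. Dap160 and GluRIIB were named after their values were seen, to complete the 6 calls. With quantile normalization on fixed probe sets, the 2 higher genes were at 0.14 (Nmdar2) and 0.15 (GluRIIB), and the 4 lower ones at -0.13 (Irk1), -0.074 (Liprin-alpha), -0.051 (Tomosyn) and -0.037 (Dap160). None was called there, and over all settings tried the adjusted p of Nmdar2 ran from 0.0273 to 0.691 and that of Irk1 from 0.0237 to 0.570.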

How the data were processed

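RNA of 8 pools of whole SZ females (4 ZxZ, 4 ZxM) was hybridised to Affymetrix GeneChip Drosophila Genome 2.0 arrays. The deposited values are log2 levels: the authors corrected the background, calibrated and transformed the arrays with VSN, and summarised probe sets with RMA in affy under R 2.8.1, without a filter. Of 18952 probe sets, 13647 have 1 gene in the platform's annotation, with symbols updated by Entrez number. As in the methods, the probe set of the largest variance stood for each gene and the upper 50% by interquartile range were tested. The threshold in the methods, 0.5, was read as a quantile. An interquartile range of at least 0.5 was an alternative. Limma 3.58.1 in R 4.3.3 was used (lmFit, arrayWeights by REML, eBayes, Benjamini-Hochberg), and tested on simulated data. The number of arrays limits the precision. The members, lists and tests were chosen with earlier results of these data known. Values are given for every array for the 6 tested genes with the smallest p, the brightest and dimmest gene of each role, and the further genes with the smallest p. Alternatives dropped the weights or the filter, changed the probe set, the scaling or the low-value filter, blocked on the replicate number, or left out 1 array. The labels do not say whether a replicate number shared by ZxZ and ZxM marks a pair. No sequences were used here.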

Additional observations from a re-analysis of the deposited data

Results flagged for a closer look

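In each group of 4 arrays, the lowest and the highest level of each of the 36 genes were compared with the other 3. Of the 72 groups, 4 had an array whose gap to the nearest other, as a share of the whole range, exceeded Dixon's 95% limit for 4 samples. Chance does so in about 1 in 20 groups, or 3.6 here. In ZxM replicate 2, unc-13 was at 8.37, beside 8.72 to 8.74 in the other ZxM arrays, and Gad1 was at 8.36, beside 8.67 to 8.70. In ZxZ replicate 4, futsch, a microtubule-associated protein of axons, was at 7.28, beside 7.42 to 7.43. In ZxM replicate 3, the glutamate receptor subunit GluRIA was at 6.92, beside 6.88 to 6.89.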

How the results depend on the processing

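The number of synaptic and channel genes called was 0 of 14. With arrays centred on their median it was 6 of 17 lower, beside 3637 lower and 45 higher of 5991 tested genes. With the lowest 25% of probe sets left out it was 1 of 13 lower, beside 1373 lower and 87 higher of 5059 tested genes. It was 0 without weights, without the filter, over every probe set, after quantile normalization and with the replicate block. It was also 0 of 15 with the brightest probe set, beside 1277 lower and 76 higher of all tested genes. Without 1 array it was 0 to 6 lower and 0 to 2 higher. With an interquartile range of at least 0.5 none of the genes was tested. Of all tested genes, 1057 lower and 66 higher became 3637 lower with centred arrays, 1 lower and 0 higher with the replicate block, and 0 in both directions without weights, without the filter, over every probe set, at an interquartile range of at least 0.5, after quantile normalization (also with the same probe sets and tested genes) and with the replicate block and no weights. The last 2 settings were added after the data were seen. At an unadjusted p under 0.05, 1365, 2529, 2718, 5, 569, 584 and 838 genes remained in these fits. Without 1 array the counts were 0 to 2595 lower and 0 to 373 higher. The calls of further pathway genes (4 lower and 2 higher of 31) were 14 lower and 2 higher of 32 with centred arrays. They were 0 in both directions without weights, without the filter, over every probe set, after either quantile normalization and with either replicate block. Without 1 array they were 0 to 9 lower and 0 to 4 higher. The causes were not tested. The 29 genes above the lowest levels were 15 with the array median and 18 with the receptor genes as reference. Correlations of same-numbered arrays ran from -0.23 to 0.16, and 2 of 4 were above 0.1. So few arrays cannot decide whether the numbers pair them, and the study describes both matings within each of its 4 replicates. The median difference of the 36 genes was -0.071 to -0.0025 in all settings but the fit of every probe set (0.0034). Small differences changed sign, none called in any setting. Gad1 was at 0.0052 without weights (also with the block), 0.036 and 0.026 after quantile normalization (the second with the same probe sets). Appl was at 0.010 (also with the block), 0.014 and 0.0011 there, and at 0.0036 without the filter. nAChRalpha5 was at -0.032 with centred arrays and -0.0083 with quantile normalization on fixed probe sets. nAChRbeta1 was at -0.028 with centred arrays and -0.0051 and -0.021 after quantile normalization. Without 1 array Gad1 ran from -0.13 to 0.042, Appl from -0.074 to 0.053, Sh from -0.10 to 0.015, and nAChRalpha5 from -0.0095 to 0.067. Signal over background, which would limit the dim genes, is unknown.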
